A study of Mus musculus with 31 samples.

Results

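Alveolar macrophages (AM) of CS-exposed RAGE null mice were compared with AM of CS-exposed WT mice after 4 months of cigarette smoke (CS), across every gene of the RNA-seq count table. The comparison rests on 8 of the 31 libraries of the series, each from 1 sample: 4 labelled RAGE null and 4 labelled WT. RAGE null mice were homozygous for a null mutation of Ager, the gene of the receptor for advanced glycation end-products, on a C57BL/6 background, and WT mice were C57BL/6. The genotypes were kept as separate colonies, so that the mutation and any other difference between the colonies cannot be told apart. All were male, 8 to 12 weeks old at the start, and breathed CS for 2.5 h per day on 5 days per week. AM were the pelleted cells of lung lavage, which were not sorted. RAGE null and WT mice kept in room air for 4 months (controls, 4 libraries each) and mice of both genotypes that breathed CS for only 7 days (4 libraries each) are set beside the comparison where they bear on it, and the 7-day controls (4 RAGE null and 3 WT libraries) enter only as listed levels. RAGE null and WT refer throughout to the labels of the libraries.

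AM are the resident phagocytes of the airspace, which clear inhaled particles and surfactant lipid. RAGE is a cell surface receptor of the immunoglobulin superfamily that binds S100 proteins, HMGB1 and glycated proteins and signals to NF-kB, and in the lung it is best known from type 1 alveolar cells. CS carries oxidants and electrophiles, which free the transcription factor Nrf2 from its inhibitor Keap1 to switch on glutathione synthesis and phase 2 enzymes, and aromatic hydrocarbons, which bind the aryl hydrocarbon receptor. The genes of these pathways, of the NF-kB and interferon responses, of the circadian clock and of lipid handling are described below.

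The 8 libraries held 14885608 to 20025262 counts. Levels are given as CPM, counts scaled to library size by the TMM method, which are comparable between libraries for a gene but not between genes of unequal length. Folds compare the mean CPM of RAGE null AM with that of WT AM, whereas log2 differences are the fitted ones of edgeR, RAGE null minus WT. A gene was called when its edgeR quasi-likelihood adjusted p was below 0.05 and its fitted fold at least 1.5 in either direction. The labels do not say whether libraries of a group came from separate litters or days, so p-values measure the spread between these mice. Defining AM genes were abundant in every library: the 20 measured AM markers summed to 32770 to 37950 CPM in CS-exposed RAGE null AM and 34460 to 38650 CPM in CS-exposed WT AM. On the first principal component, which held 54.6% of the variance of the 8 libraries, all 4 RAGE null libraries had positive scores and all 4 WT libraries negative ones. RAGE null replicate 0 stood apart from the other libraries on the second component, with a score of -27.8. It also held 352 CPM of Hsph1, a cytosolic chaperone of the heat shock response, where the other RAGE null libraries held 55.1 to 102 CPM and WT libraries 83.7 to 130 CPM. Control RAGE null replicates 2 and 3, described with the single genes below, stood apart from the other RAGE null controls, and the main counts, with several of those by gene group, are also given without these 3 libraries, a choice made after seeing the data.

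Ager itself was higher, not lower, in the libraries labelled RAGE null. CS-exposed RAGE null libraries held 3.17, 4.03, 3.27 and 3.42 CPM of Ager (chromosome 17, 34597862 to 34600934, mm10), against 1.59, 1.995, 1.18 and 0.644 CPM in CS-exposed WT libraries. Every library labelled RAGE null lay above every library labelled WT, by a mean difference of 2.12 CPM (two-sided exact permutation test over 4 and 4 libraries, p = 0.0286, the smallest these numbers allow). The ratio of the group means was 2.57 (fitted log2 1.34, SE 0.26, edgeR adjusted p = 0.004). Ager was higher in RAGE null controls too (log2 0.90, adjusted p = 0.0206), whereas after 7 days of CS the log2 difference was -0.41 with an edgeR adjusted p of 0.194. The counts cover the gene as a whole and do not show which exons the reads came from, so these counts by themselves do not check the label. Of 16 measured genes of RAGE and its ligands Ager was the only one called, although leaving out single libraries gave up to 3 (without WT replicate 2).

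Genes near Ager on chromosome 17 give a further view of the labels. Of 195 tested genes within 5 Mb of Ager, 28 were called (14.4%, 16 higher and 12 lower in RAGE null AM), against 4.94% of all 13045 genes tested, the background for the counts of called genes below. Between 5 and 10 Mb the share was 8.82% of 136 genes, on the rest of chromosome 17 it was 6.15% of 374, and on the other chromosomes 4.71% of 12340. Among single autosomes the share ran from 2.83% on chromosome 11 to 8.94% on all of chromosome 17. Chromosome 1, at 8.91% of 763 genes, and chromosome 18, at 8.05% of 298, came near that of chromosome 17. H2-T10, a non-classical class I histocompatibility gene in the interval within 5 Mb of Ager, held 19.3, 20.6, 22.2 and 22.1 CPM in RAGE null AM. In WT AM it held 3.09, 2.79, 3.04 and 3.03 CPM, a 7.05-fold difference (edgeR adjusted p = 5.18e-07). Its levels in the 7-day CS libraries were 20.6 to 21.1 CPM in RAGE null AM and 3.18 to 6.33 CPM in WT AM. H2-T10 thus separated the labels at both times, with all libraries of one label clear of the other. Glo1, which codes for glyoxalase 1, the enzyme that detoxifies the glycation precursor methylglyoxal, lies in the same interval and was 2.30-fold higher in RAGE null AM, with 33.8 to 35.0 CPM against 13.9 to 15.7 CPM in WT AM (adjusted p = 2.86e-05). Farther along the chromosome, Emilin2, an extracellular matrix glycoprotein, held 259, 268, 244 and 208 CPM in RAGE null AM and 54.7, 45.2, 40.1 and 65.0 CPM in WT AM (4.77-fold, adjusted p = 1.49e-07), and Crim1, a transmembrane regulator of BMP signalling, was 5.49-fold higher (adjusted p = 3.56e-08). Both were called in the same direction in the 4-month controls and after 7 days of CS. H2-T10, Emilin2 and Crim1 overlap other listed genes, and the strand of counting is not given in the sources used here, so their reads may be shared. Of genes named below, Tnf, Nfkbie, Epas1, C3, C4b, Cfb, Epcam, Clic5 and Hspa1a also lie on chromosome 17. Whether the mutation or neighbouring sequence that came with it accounts for these genes was not tested.

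**Figure D1:**
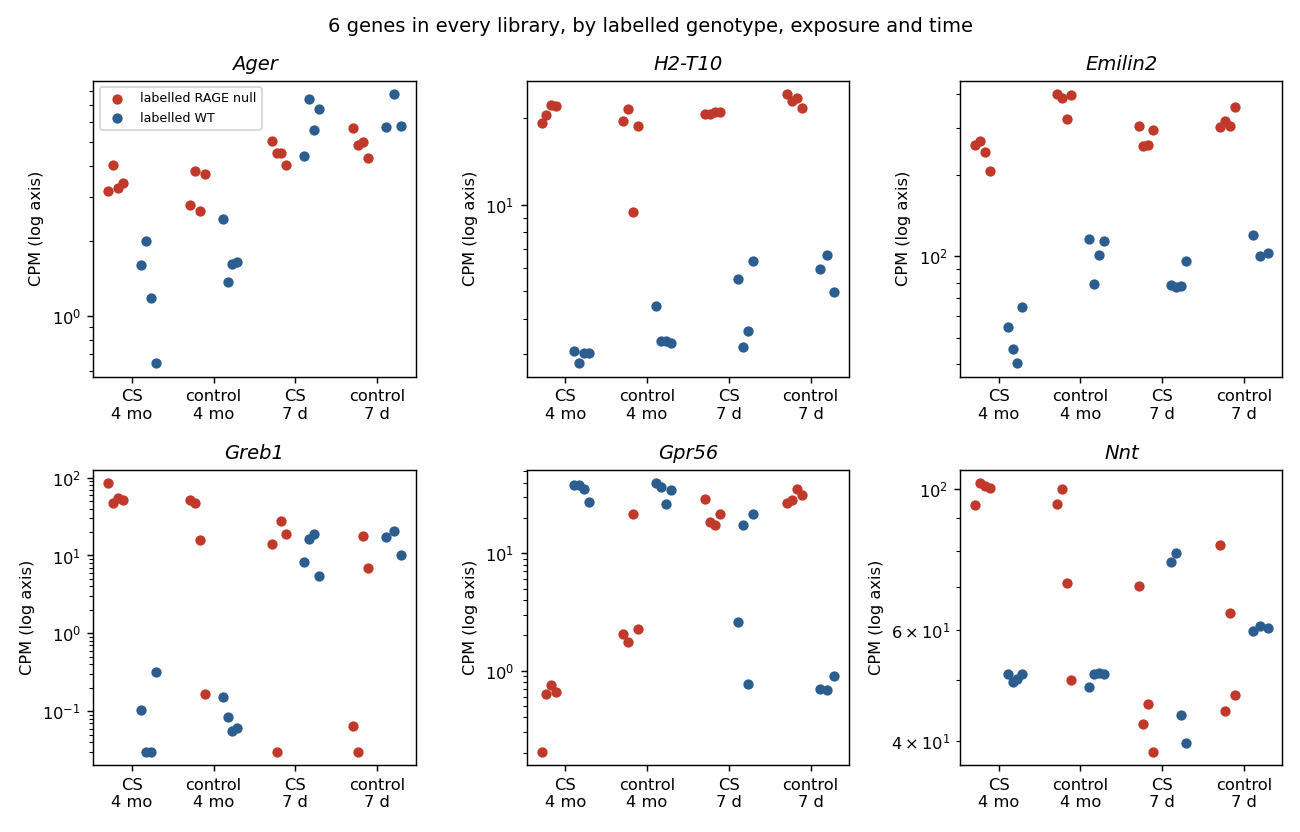
CPM on a log axis in each library (points, 1 per library) labelled RAGE null and labelled WT, for CS and control groups at 4 months and at 7 days, for Ager, H2-T10, Emilin2, Greb1, Gpr56 and Nnt. Values of 0 are drawn at 0.03 CPM. H2-T10 and Emilin2 keep the labels apart in every group shown, whereas Greb1 and Gpr56 do so after 4 months of CS and overlap after 7 days of CS.

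Across the genome, 644 genes (4.94% of 13045) were called after 4 months of CS. RAGE null AM were higher for 256 of them (1.96%) and lower for 388 (2.97%). For 602 of the 644 the values of the 2 groups did not overlap, as was so for 2532 of all tested genes (19.4%). The median log2 difference over all genes was 0.01. Among the largest differences were genes that were nearly absent from one group. Greb1, an estrogen receptor cofactor gene, held 84.8, 47.2, 55.1 and 51.1 CPM in RAGE null AM, against 0.103, 0, 0 and 0.322 CPM in WT AM. Gpr56, an adhesion G protein-coupled receptor, showed the opposite, with 0.202, 0.628, 0.759 and 0.657 CPM in RAGE null AM and 38.3, 38.2, 35.5 and 27.4 CPM in WT AM (adjusted p = 0.000187). Ccbe1, a secreted factor needed for lymphatic growth, was likewise at 0 to 0.131 CPM in RAGE null AM and at 15.4 to 23.4 CPM in WT AM.

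These on and off genes did not follow the label everywhere. After 7 days of CS, Greb1 held 14.1, 0, 27.3 and 18.9 CPM in RAGE null AM and 8.17, 16.2, 19.1 and 5.42 CPM in WT AM. Gpr56 held 17.3 to 28.7 CPM in the same RAGE null libraries and 0.764 to 21.7 CPM in the WT libraries, and in 7-day controls it was high in RAGE null AM, at 26.8 to 35.3 CPM, and low in WT AM, at 0.688 to 0.898 CPM. Nnt, the mitochondrial transhydrogenase that supplies NADPH, held 94.5 to 102 CPM in 4-month CS-exposed RAGE null AM and 49.6 to 51.1 CPM in WT AM (1.97-fold, adjusted p = 0.000538), yet the groups overlapped after 7 days of CS, at 38.5 to 70.4 CPM in RAGE null AM and 39.7 to 79.5 CPM in WT AM. Greb1 and Gpr56 thus differed many-fold among mice of 1 label at 7 days. Whether mice of 1 label shared 1 genetic background was not tested, and for these genes genotype and background cannot be told apart. In RAGE null controls of 4 months, replicate 3 held 0.166 CPM of Greb1 and 49.97 CPM of Nnt, as WT libraries did, where the other 3 held 15.8 to 52.0 CPM of Greb1 and 71.2 to 100 CPM of Nnt. Replicate 2 of the same group lay between the labels for Gpr56, at 21.7 CPM, and for H2-T10, at 9.42 CPM, while the other 3 held 1.75 to 2.27 CPM of Gpr56 and 18.8 to 21.5 CPM of H2-T10.

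**Figure D2:**
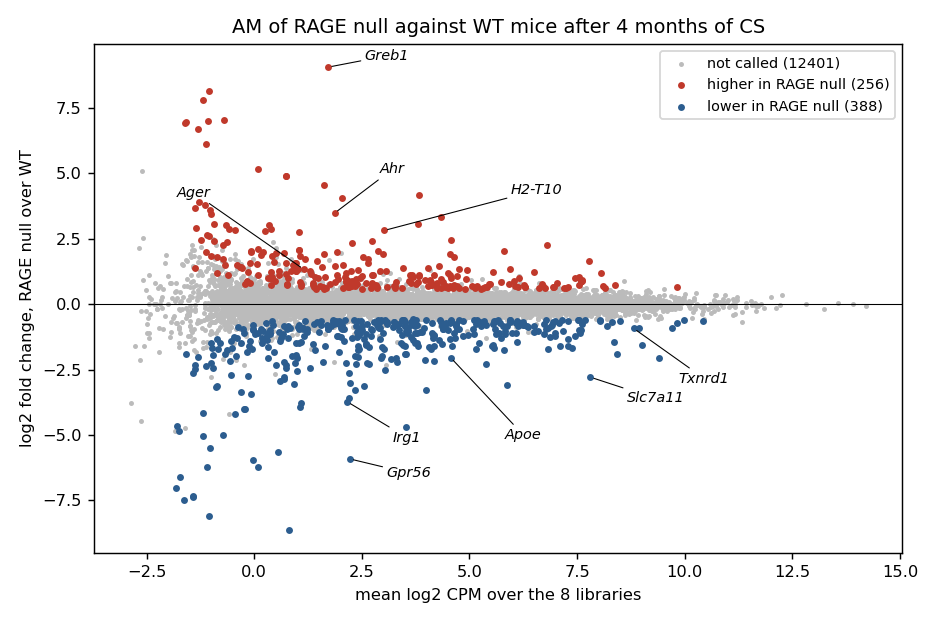
Log2 fold change of CS-exposed RAGE null over CS-exposed WT AM against mean log2 CPM, for each of the 13045 tested genes after 4 months (1 point per gene, called genes in colour). The 256 genes higher and 388 genes lower in RAGE null AM spread around a median log2 difference of 0.01.

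Antioxidant genes were lower in RAGE null AM. Of 39 tested genes of the Nrf2 list, 18 were lower in RAGE null AM and none was higher, against 2.97% lower and 1.96% higher among all genes. Their median log2 difference was -0.70 beside 0.01 for all genes, and 38 of the 39 had a negative log2 difference. The list holds enzymes that make and use glutathione and thioredoxin, that conjugate electrophiles and that break down heme. Among members that take part in glutathione synthesis, Slc7a11, the cystine importer, held 50.9, 114, 102 and 87.0 CPM in RAGE null AM, against 476, 650, 875 and 454 CPM in WT AM. The lowest WT library held several times the Slc7a11 level of the highest RAGE null library, and the group mean was 6.93-fold lower in RAGE null AM (fitted log2 -2.79, SE 0.50, adjusted p = 0.00229). Gclm, the modifier subunit of glutamate-cysteine ligase, was at 62.2, 89.4, 87.2 and 68.1 CPM in RAGE null AM and at 149, 198, 249 and 144 CPM in WT AM (log2 -1.27, SE 0.29, adjusted p = 0.0102). Txnrd1, thioredoxin reductase, held 223, 420, 364 and 323 CPM in RAGE null AM and 546, 685, 750 and 545 CPM in WT AM (log2 -0.93, SE 0.21, adjusted p = 0.011).

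Several detoxifying enzymes moved the same way. Gsta3, a glutathione S-transferase, was at 0.135, 1.05, 0.992 and 0.460 CPM in RAGE null AM and at 4.73, 6.16, 8.44 and 3.35 CPM in WT AM (log2 -3.04, SE 0.59, adjusted p = 0.00403). Ephx1, microsomal epoxide hydrolase, held 19.1, 36.0, 26.3 and 30.2 CPM in RAGE null AM and 86.0, 86.9, 103 and 52.0 CPM in WT AM (log2 -1.55, SE 0.25, adjusted p = 0.000956). For both, all WT libraries lay above all RAGE null libraries. Hmox1, heme oxygenase 1, which breaks heme down to biliverdin, iron and carbon monoxide, held 296, 345, 368 and 347 CPM in RAGE null AM, against 972, 1582, 1950 and 1141 CPM in WT AM (log2 -2.06, SE 0.41, adjusted p = 0.00477). RAGE null libraries stood close together for Hmox1, while WT libraries spread over a wide range. Nqo1, a quinone reductase often used as an Nrf2 readout, held 2.56 to 9.74 CPM in RAGE null AM and 12.9 to 35.9 CPM in WT AM (log2 -1.90, SE 0.47, adjusted p = 0.0183), and this call was lost without WT replicate 2 (adjusted p = 0.0638) or RAGE null replicate 0 (adjusted p = 0.0537). Cbr2, carbonyl reductase 2, which the study names among Nrf2 targets, did not differ. It held 2.36 to 6.54 CPM in RAGE null AM and 2.62 to 6.76 CPM in WT AM (log2 0.10, adjusted p = 0.91). The number of Nrf2 genes called lower was 9 without WT replicate 2, 11 without RAGE null replicate 0 and 12 without WT replicate 1, and 17 without the 3 libraries that stood apart.

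The same list was lower in RAGE null AM of the 4-month controls, where 11 of the 39 were called lower and none higher, at a median log2 difference of -0.57, beside 6.97% of genes called in that comparison. After 7 days of CS, 2 of the list were called lower and none higher, at a median of -0.51, beside 2.2% of genes called. In those RAGE null AM, replicate 0 lay far below the others, which adds to the group difference. It held 22.5 CPM of Slc7a11 (others 224 to 294 CPM) and 315 CPM of Hmox1 (others 1170 to 2061 CPM). Controls varied widely within a label: Hmox1 held 476 to 1743 CPM in RAGE null controls and 741 to 2930 CPM in WT controls. None of the list was called for the genotype by CS interaction, the difference between the genotype effect after CS and that in controls, for which 0.0383% of all genes were called.

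Promoters of Nrf2 list members were read for the antioxidant response element core, TGACNNNGC on either strand, in the 250 bases before each RefSeq start (GRCm38.p6). Of 31 list genes matched, 7 (22.6%) held it in at least 1 listed promoter, and 10.2% of the 32851 single promoters in the table held it. A gene with several starts had more chances than a single promoter, so these shares are not like for like. Of the 7 genes 5 were called, beside 15 of the 31 matched. Promoters of 3 called genes are shown, with the core in capitals, for a conjugating enzyme (Gsta3, chr1:21240335-21240584, + strand), the glutathione synthesis subunit (Gclm, chr3:122245307-122245556, + strand) and thioredoxin reductase (Txnrd1, chr10:82858956-82859205, + strand, 1 of 3 listed starts). In Gclm and Txnrd1 the core reads on the minus strand and so appears as its reverse complement.
Gsta3: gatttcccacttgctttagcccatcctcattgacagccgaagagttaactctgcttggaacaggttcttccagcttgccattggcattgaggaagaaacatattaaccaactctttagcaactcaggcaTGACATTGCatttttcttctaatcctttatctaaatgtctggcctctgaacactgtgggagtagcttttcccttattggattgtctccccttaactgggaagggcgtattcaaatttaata
Gclm: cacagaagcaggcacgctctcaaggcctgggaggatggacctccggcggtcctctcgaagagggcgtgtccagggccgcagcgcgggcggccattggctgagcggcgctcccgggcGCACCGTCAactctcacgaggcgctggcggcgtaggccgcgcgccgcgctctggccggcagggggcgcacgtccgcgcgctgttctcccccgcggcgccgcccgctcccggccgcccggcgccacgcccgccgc
Txnrd1: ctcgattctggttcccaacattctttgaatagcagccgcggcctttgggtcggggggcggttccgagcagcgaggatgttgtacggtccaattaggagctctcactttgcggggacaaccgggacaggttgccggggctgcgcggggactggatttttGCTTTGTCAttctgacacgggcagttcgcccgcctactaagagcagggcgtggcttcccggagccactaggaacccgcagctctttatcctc
A match shows that these letters are present in the window and nothing on whether a factor bound there.

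**Figure D3:**
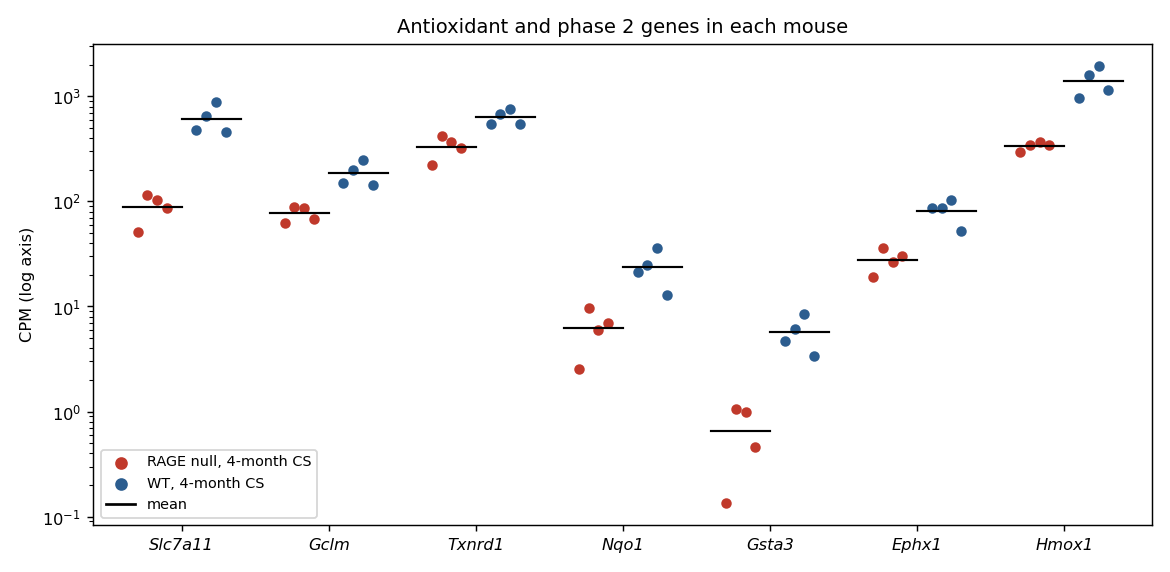
CPM on a log axis of Nrf2 list members in each library (points) of RAGE null and WT mice after 4 months of CS, with bars at the group means. The 4 CS-exposed RAGE null libraries lie below all 4 CS-exposed WT libraries for Slc7a11, Hmox1, Gsta3, Ephx1, Gclm and Txnrd1.

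Many chemokines and genes of the NF-kB pathway were also lower in RAGE null AM. Of 18 chemokines tested, 9 were lower in RAGE null AM and none was higher, at a median log2 difference of -0.88. Their summed level overlapped, at 3576 to 6382 CPM in RAGE null AM and 4873 to 5780 CPM in WT AM. Ccl17 and Ccl22, the ligands of CCR4 that draw T cells, were both lower. Ccl17 held 0.606, 0.314, 0.642 and 0.723 CPM in RAGE null AM and 3.40, 3.42, 4.43 and 4.25 CPM in WT AM (log2 -2.77, SE 0.26, adjusted p = 8.89e-06), and Ccl22 held 1.95, 7.80, 5.13 and 4.34 CPM in RAGE null AM and 24.02, 22.3, 17.3 and 25.9 CPM in WT AM (log2 -2.19, SE 0.36, adjusted p = 0.00124). Cxcl3, a neutrophil attractant that acts through CXCR2, was at 2.56, 1.83, 1.63 and 0.657 CPM in RAGE null AM and at 11.3, 14.8, 15.1 and 24.9 CPM in WT AM (log2 -3.29, SE 0.60, adjusted p = 0.00271). Cxcl9, an interferon gamma induced attractant of T cells, was 3.99-fold lower in RAGE null AM (adjusted p = 0.000273), and Cx3cl1, fractalkine, was 2.12-fold lower (adjusted p = 0.00107). None of these 5 chemokines had a RAGE null library within the WT range. The number of chemokines called lower was 6 without WT replicate 0 or without RAGE null replicate 0. In RAGE null controls of 4 months 5 of the 18 were lower and 2 higher, at a median of -0.49, beside 6.97% of genes called. Ccl17, Ccl22, Cxcl9 and Cx3cl1 were among those called lower in controls, and Cxcl3 was not called there. After 7 days of CS 7 were lower and 1 higher, at a median of -0.76, beside 2.2% of genes called. Cx3cl1 ran the other way at 7 days, higher in RAGE null AM but short of the fold threshold (log2 0.53, edgeR adjusted p = 0.00467). None of the chemokines was called for the interaction, which, with few calls over all genes, does not show an equal difference with and without CS.

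Of 28 genes of NF-kB subunits and targets, 12 were lower in RAGE null AM and none was higher, with a median log2 difference of -0.60 and 26 of 28 log2 differences negative. Among the subunits, Relb, the transactivating partner of the non-canonical pathway, held 23.4, 26.6, 27.4 and 19.97 CPM in RAGE null AM and 45.6, 48.0, 44.3 and 52.5 CPM in WT AM (log2 -0.96, SE 0.14, adjusted p = 0.000471). Nfkb2, the precursor of the p52 subunit, held 69.5, 64.9, 65.1 and 45.1 CPM in RAGE null AM and 104, 103, 104 and 129 CPM in WT AM (log2 -0.84, SE 0.13, adjusted p = 0.000692). The 2 subunits thus kept the labels apart in all 8 libraries. Among the inhibitors, which NF-kB itself induces, Nfkbie held 11.3, 13.7, 13.8 and 9.72 CPM in RAGE null AM and 33.6, 34.2, 27.9 and 43.8 CPM in WT AM (log2 -1.52, SE 0.21, adjusted p = 0.000288), and Tnip1, whose product binds A20, was 1.73-fold lower in RAGE null AM (adjusted p = 0.00094). Icam1, the adhesion molecule for leukocyte integrins, held 112, 150, 142 and 111 CPM in RAGE null AM and 272, 276, 259 and 307 CPM in WT AM (log2 -1.11, SE 0.19, adjusted p = 0.00171). Cd40, a costimulatory receptor of the TNF receptor family, was scarce, at 0 to 0.233 CPM in RAGE null AM and 0.570 to 1.996 CPM in WT AM (adjusted p = 0.00294). Icam1 and Nfkb2 overlap other listed genes. In RAGE null controls of 4 months 3 of the list were higher and 1 lower, at a median of 0.02, and after 7 days of CS 1 was higher and 1 lower. None of the list was called for the interaction. Few genes were called for it at all, so this does not show an equal difference with and without CS.

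Of 16 cytokines tested, 2 were lower in RAGE null AM and none higher. Tnf, the founding member of its family, held 8.89, 13.5, 9.45 and 6.90 CPM in RAGE null AM and 35.5, 25.5, 20.1 and 39.5 CPM in WT AM (log2 -1.63, SE 0.35, adjusted p = 0.00729). Il1a, interleukin 1 alpha, held 42.8, 47.2, 41.1 and 44.6 CPM in RAGE null AM and 75.3, 79.6, 75.9 and 78.6 CPM in WT AM (log2 -0.82, SE 0.15, adjusted p = 0.00229). Tnf lies within 5 Mb of Ager. Both genes kept a gap between the labels, and Il1a levels were nearly even within each. Further inflammatory genes were among the largest decreases over all genes: Il1f9, interleukin 36 gamma, was 12.5-fold lower in RAGE null AM (adjusted p = 0.00499), Irg1, which makes itaconate, was 13.4-fold lower (adjusted p = 0.00575), and Gpr84, a receptor for medium-chain fatty acids, was 5.54-fold lower (adjusted p = 0.000729).

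**Figure D4:**
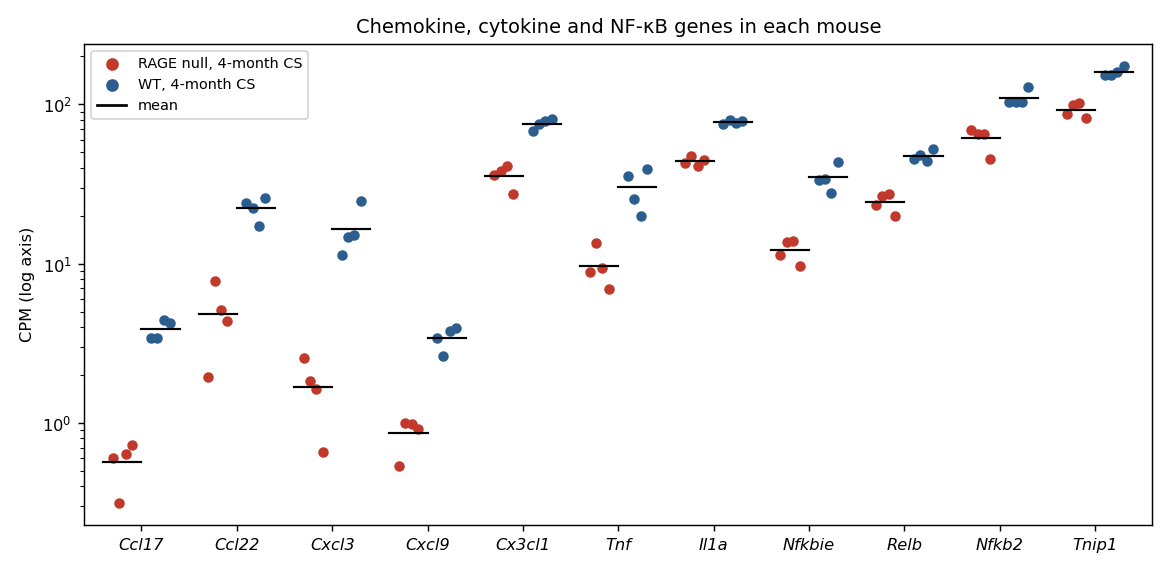
CPM on a log axis of chemokine, cytokine and NF-kB genes in each library (points) of RAGE null and WT mice after 4 months of CS, with bars at the group means. CS-exposed RAGE null libraries lie below CS-exposed WT libraries for Ccl22, Cxcl3, Tnf, Nfkbie and Relb.

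The leading bases of the kappa-B element, GGGNNTTTC on either strand, were found in at least 1 listed promoter of 5 of 22 NF-kB list genes (22.7%). The same held for 5 of 14 chemokine genes (35.7%), and 3.72% of all 32851 single promoters held the element. Genes with several starts had more chances, so the shares of genes and of single promoters are not like for like. Of the genes with the element, 3 of 5 NF-kB genes and 3 of 5 chemokines were called, beside 10 of the 22 and 8 of the 14 matched. A chemokine (Cxcl3, chr5:90785851-90786100, + strand) and a subunit (Nfkb2, chr19:46304487-46304736, + strand, 1 of 3 listed starts) are shown with the element in capitals.
Cxcl3: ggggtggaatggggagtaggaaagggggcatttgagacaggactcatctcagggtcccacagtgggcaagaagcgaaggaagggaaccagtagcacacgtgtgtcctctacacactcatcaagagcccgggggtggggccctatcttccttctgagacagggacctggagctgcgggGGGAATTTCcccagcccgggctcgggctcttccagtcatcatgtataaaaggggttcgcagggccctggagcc
Nfkb2: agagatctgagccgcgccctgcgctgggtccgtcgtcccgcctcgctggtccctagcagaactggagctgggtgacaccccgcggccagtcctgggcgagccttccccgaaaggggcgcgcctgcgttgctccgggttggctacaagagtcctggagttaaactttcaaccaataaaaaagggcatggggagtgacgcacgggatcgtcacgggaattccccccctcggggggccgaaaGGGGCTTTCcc
No binding was measured in these libraries.

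Calls among the interferon genes depended on single libraries. Of 31 tested genes of the type I interferon response, 5 were lower in RAGE null AM and none was higher, at a median log2 difference of -0.42. Rsad2, viperin, an antiviral radical SAM enzyme, held 0.943, 1.15, 1.63 and 2.10 CPM in RAGE null AM and 6.02, 2.91, 12.8 and 5.60 CPM in WT AM (log2 -2.22, SE 0.57, adjusted p = 0.0206). WT libraries varied widely for Rsad2, and its call was lost without WT replicate 2 (adjusted p = 0.0772) or RAGE null replicate 0 (adjusted p = 0.0618). Without WT replicate 2, 0 of the 31 genes were called, and without RAGE null replicate 0 or RAGE null replicate 1, 1 was called. Removing WT replicate 0, WT replicate 3, replicate 2 of the WT controls or replicate 3 of the RAGE null controls left 3, while there were 8 without RAGE null replicate 3, and 9 by DESeq2. Of 25 interferon gamma targets and class II genes, 2 were lower and none was higher.

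Clock genes held 3 of the 5 genes whose genotype difference after CS differed from that in controls. Of 15 tested clock genes, 2 were higher and 4 lower in RAGE null AM after CS. Nr1d1 (Rev-erb alpha), a nuclear receptor that represses Arntl, held 9.09, 8.54, 7.06 and 5.78 CPM in RAGE null AM and 31.2, 34.6, 21.1 and 48.6 CPM in WT AM (log2 -2.15, SE 0.22, adjusted p = 2.34e-05). In the 4-month controls the difference ran the other way, with 34.4 to 50.9 CPM in RAGE null AM and 20.9 to 29.4 CPM in WT AM (log2 0.78, adjusted p = 0.0151). The interaction was -2.93 on the log2 scale (adjusted p = 0.000284). Its paralog Nr1d2 (Rev-erb beta) held 41.9, 34.5, 36.5 and 38.8 CPM in CS-exposed RAGE null AM and 85.3, 85.5, 77.5 and 88.9 CPM in CS-exposed WT AM (log2 -1.15, SE 0.11, adjusted p = 1.43e-05), with an interaction of -1.57 (adjusted p = 0.000284).

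Dbp, a PAR bZIP factor driven by the clock through E-boxes, was 3.04-fold lower in RAGE null AM, with 7.33 to 9.07 CPM against 21.4 to 27.3 CPM in WT AM (adjusted p = 1.82e-05). Per3, a period protein, was 1.64-fold lower, with 16.6 to 19.2 CPM in RAGE null AM and 26.1 to 33.9 CPM in WT AM (adjusted p = 0.00566). Arntl (Bmal1), the partner of CLOCK, held 20.8, 15.7, 17.5 and 20.6 CPM in RAGE null AM and 7.61, 7.29, 12.1 and 7.34 CPM in WT AM (log2 1.12, SE 0.15, adjusted p = 0.000225). Nfil3, a repressor that competes with Dbp for its sites, was 2.34-fold higher, with 53.5 to 117 CPM in RAGE null AM and 27.3 to 36.9 CPM in WT AM (adjusted p = 0.0025). In the same libraries Cry1, a repressor of CLOCK and BMAL1, was 1.37-fold higher in RAGE null AM, short of the fold threshold, with an interaction of 0.999 on the log2 scale (adjusted p = 0.0136). After 7 days of CS, Nr1d1 was at 42.3 to 68.4 CPM in RAGE null AM and 66.1 to 82.4 CPM in WT AM (adjusted p = 0.0822), and of the clock list 1 gene was called higher and none lower. Arntl did not differ between the labels in 4-month controls beyond its spread, at 21.8 to 27.0 CPM in RAGE null AM and 21.4 to 26.6 CPM in WT AM. The time of day at which each mouse was killed is not given in the sources used here, so sampling time and genotype cannot be told apart for these genes. Nr1d1 overlaps Thra and Dbp overlaps Sphk2, and their reads may be shared. The E-box CACGTG was found in at least 1 listed promoter of 4 of 13 clock genes (30.8%), and in none of the 6 called. Of all single promoters 6.02% held it, a share that is not like for like with that of genes with several starts.

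**Figure D5:**
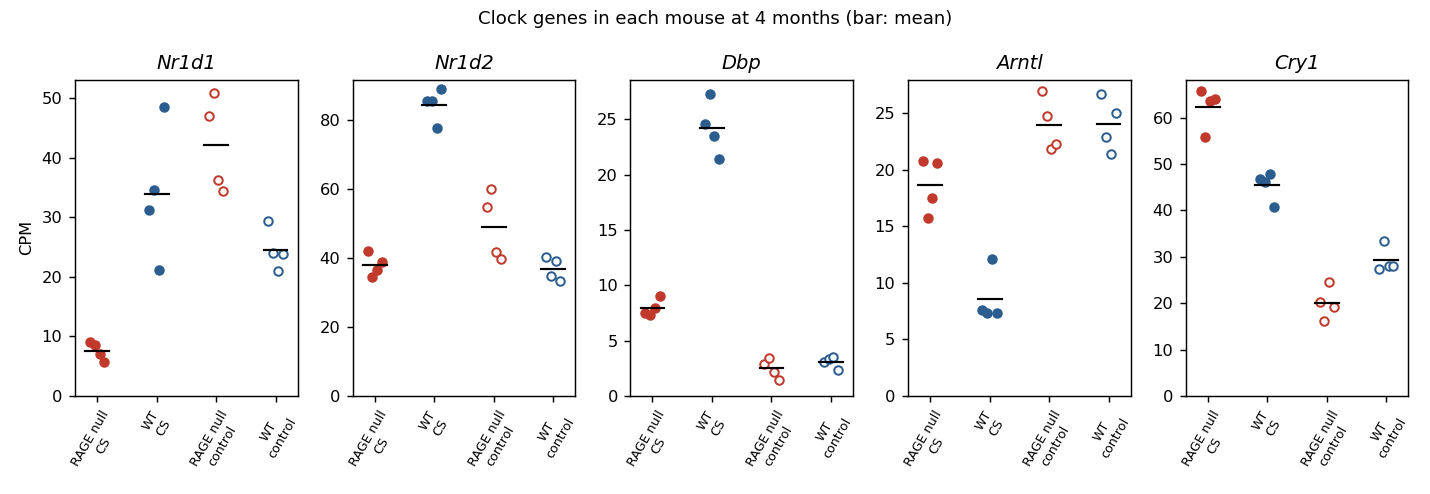
CPM on a linear axis of 5 clock genes in each 4-month library (points) of CS-exposed RAGE null and WT mice and of RAGE null and WT controls, with bars at the group means. After CS, Nr1d1, Nr1d2 and Dbp are lower and Arntl is higher in all 4 RAGE null libraries than in all 4 WT libraries.

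The interaction was called for 5 of 13045 genes (0.0383%) and 1570 had an unadjusted p under 0.05. Beside Nr1d1, Nr1d2 and Cry1 they were Zeb1, a repressor of epithelial genes (log2 0.88, adjusted p = 0.0494), and Nr1h3, the oxysterol receptor LXR alpha (log2 -0.60, adjusted p = 0.0353). Zeb1 held 14.4 to 18.3 CPM in CS-exposed RAGE null AM and 9.98 to 12.4 CPM in CS-exposed WT AM, while it held 13.2 to 15.9 CPM in RAGE null controls and 14.5 to 19.6 CPM in WT controls. Nr1h3 held 66.9 to 75.0 CPM in CS-exposed RAGE null AM and 87.8 to 101 CPM in CS-exposed WT AM, short of the fold threshold. With each of the 16 libraries of 4 months left out in turn, Nr1d1, Nr1d2 and Cry1 were called for the interaction every time, whereas the call was lost for Zeb1 in 12 and for Nr1h3 in 13 of the 16 fits (adjusted p up to 0.145). The number of genes moved with single libraries: it was 74 without control RAGE null replicate 2, 49 without CS-exposed RAGE null replicate 0, 22 when replicate 1 of the RAGE null controls was removed, 3 without any 1 of 6 others, and 551 without the 3 libraries that stood apart, while DESeq2 gave 65.

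Several genes that LXR controls were lower in RAGE null AM. Of 16 tested genes of LXR and sterol efflux, 5 were lower and 1 higher in RAGE null AM, at a median log2 difference of -0.29. Abca1, which exports cholesterol to apolipoproteins, held 117, 91.4, 50.5 and 83.1 CPM in RAGE null AM and 172, 225, 169 and 223 CPM in WT AM (log2 -1.21, SE 0.19, adjusted p = 0.000978). Apoe, an acceptor of that cholesterol, held 16.3, 11.2, 6.54 and 14.4 CPM in RAGE null AM and 42.3, 71.4, 46.6 and 38.2 CPM in WT AM (log2 -2.04, SE 0.29, adjusted p = 0.000353). Scd1, the desaturase that makes oleate, was at 18.8, 21.9, 9.10 and 30.8 CPM in RAGE null AM and at 88.0, 134, 92.6 and 73.5 CPM in WT AM (log2 -2.28, SE 0.32, adjusted p = 0.00033), and Scd2, its paralog, was 2.11-fold lower in RAGE null AM (adjusted p = 0.00168). For each of these 4 genes the labels did not overlap. Abca1, Scd1 and Scd2 were also called lower in RAGE null controls. Fabp5, a fatty acid binding protein, held 56.9 to 108 CPM in RAGE null AM and 213 to 337 CPM in WT AM (adjusted p = 0.00402). Of 21 genes of cholesterol synthesis and uptake, 1 was higher and none lower.

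Of 9 measured genes of the aryl hydrocarbon receptor, its partners and its targets, 3 were higher in RAGE null AM, the receptor Ahr among them, and none was lower. Ahr held 14.8, 11.4, 12.4 and 9.33 CPM in RAGE null AM and 1.54, 0.969, 0.692 and 0.966 CPM in WT AM (log2 3.48, SE 0.39, adjusted p = 4.43e-05). Ahr was also higher in RAGE null controls, at 6.55 to 23.2 CPM against 3.36 to 5.33 CPM in WT controls, and showed no call after 7 days of CS (log2 -0.15, adjusted p = 0.845). Ugt1a6a, a UDP-glucuronosyltransferase, was 1.84-fold higher, with 210 to 288 CPM in RAGE null AM and 122 to 157 CPM in WT AM (adjusted p = 0.000805). It shares exons with other Ugt1a genes, and its reads may be split among them.

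Complement genes split in direction, with 2 of 16 higher and 2 lower in RAGE null AM. C4b, the classical pathway component C4, held 66.7, 36.7, 65.6 and 118 CPM in RAGE null AM and 14.0, 4.90, 5.39 and 3.67 CPM in WT AM (log2 3.32, SE 0.69, adjusted p = 0.00662). C5ar1, the C5a receptor, held 378, 207, 260 and 247 CPM in RAGE null AM and 107, 114, 138 and 179 CPM in WT AM (log2 1.03, SE 0.18, adjusted p = 0.00191). C3, the central component, was 1.78-fold lower, with 192 to 253 CPM in RAGE null AM and 365 to 436 CPM in WT AM (adjusted p = 0.00277), and Cfb, factor B of the alternative pathway, was 1.98-fold lower (adjusted p = 0.0135). C4b and Cfb lie close to Ager. Without WT replicate 0, the highest WT library, the log2 difference of C4b was 3.94.

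Class I histocompatibility genes, most of them on chromosome 17, included 1 higher and 4 lower of 13 tested. Opposite to H2-T10, H2-M2 was at 0.0524 to 0.117 CPM in RAGE null AM and 3.93 to 6.64 CPM in WT AM (adjusted p = 1.56e-06), H2-T23, which codes for Qa-1, was 2.14-fold lower in RAGE null AM (adjusted p = 4.58e-06), and H2-M3, which presents formylated peptides, was 1.98-fold lower (adjusted p = 1.43e-05). All 3 were also called lower after 7 days of CS and in 4-month controls. Class I genes are similar in sequence, and reads at more than 1 location were removed by the authors, so these levels may miss reads.

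Further genes with large differences included transcription factors and receptors. Epas1, the hypoxia-inducible factor HIF-2 alpha, held 17.6, 15.2, 27.9 and 21.6 CPM in RAGE null AM and 178, 212, 174 and 127 CPM in WT AM (log2 -3.07, SE 0.24, adjusted p = 9.14e-07), and was called lower in RAGE null AM of the 4-month controls and at 7 days of CS as well. After 7 days of CS, Epas1 varied within the RAGE null label. Replicate 1 held 33.9 CPM, where the others held 10.2 to 12.9 CPM and WT AM 42.0 to 49.1 CPM. Slc1a3, a glutamate transporter, was 5.61-fold lower (adjusted p = 7.42e-05), Arnt2, a partner of bHLH-PAS factors, 8.02-fold lower (adjusted p = 0.00256), and Gpr55, a lipid-sensing receptor, 9.73-fold lower (adjusted p = 0.000296). In the other direction, Sh3pxd2a, a podosome scaffold, was 5.14-fold higher (10.2 to 11.7 CPM in RAGE null AM and 1.38 to 2.71 CPM in WT AM, adjusted p = 3.86e-06), Cspg4, the NG2 proteoglycan, 5.32-fold higher (adjusted p = 0.00106), and Rassf6, a Ras association domain protein, 17.2-fold higher (adjusted p = 0.000872). Rpl34, a ribosomal protein gene with processed copies in the genome, was listed at 1.57 to 2.63 CPM in RAGE null AM and 52.7 to 61.8 CPM in WT AM, a value left uncertain by the removal of reads with several locations. Rassf6, Gpr55 and Rpl34 also varied widely within 1 label. RAGE null controls of 4 months held 1.44 to 24.6 CPM of Rassf6, 2.87 to 23.4 CPM of Gpr55 and 2.41 to 66.3 CPM of Rpl34. After 7 days of CS, WT AM held 5.11 to 63.2 CPM of Rpl34, and the log2 difference of Rassf6 was -0.94 (edgeR adjusted p = 0.122). For these 3 genes too, genotype and background cannot be told apart.

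Of 30 ER chaperones and XBP1 targets, none was higher and 1 lower, whereas 9 were higher in RAGE null controls. Hspa5, the chaperone BiP, held 847 to 1792 CPM in RAGE null AM and 1014 to 1192 CPM in WT AM (adjusted p = 0.839). Of 15 genes of the PERK, ATF4 and CHOP arm 2 were lower (0 without RAGE null replicate 3), and of 36 lysosomal genes 1 was lower. Of 21 cytosolic heat shock genes none was called. Hspa1a, an inducible HSP70, held 18.4, 0.733, 1.93 and 1.45 CPM in RAGE null AM and 15.6, 23.4, 40.7 and 29.9 CPM in WT AM (log2 -2.34, adjusted p = 0.0831), and was called without RAGE null replicate 0 (adjusted p = 0.00981). Of 30 respiratory chain genes none was called. Of 40 cell cycle genes none was called, although 37 of 40 log2 differences were negative, at a median of -0.16. Among 18 alternative activation genes 1 was higher and 4 lower, and 2 were called without WT replicate 2 or RAGE null replicate 0, 1 or 3. Among 16 metalloproteinases and inhibitors 1 was higher and 1 lower, among 28 genes of lipid uptake and storage 2 were lower, among 24 immediate early genes 1 was higher, and of 4 metallothionein and zinc export genes none was called. The lipid uptake count was 5 without RAGE null replicate 1 or without replicate 2 of the RAGE null controls. Single calls in the ER, immediate early, lysosomal and metalloproteinase lists were lost without several of the single libraries. All 16 tested genes of heme and iron handling had a negative log2 difference and 4, Hmox1 among them, were called lower, or 1 without WT replicate 1, WT replicate 2 or RAGE null replicate 0.

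Markers of other cell types were read in the same libraries, since lavage pellets can hold them and bulk RNA cannot tell fewer cells of a type from less RNA per cell. Of 20 AM markers 2 were lower in RAGE null AM, and 0 without WT replicate 2 or RAGE null replicate 0. Without WT replicate 1 none was lower and 1 was higher. One was Marco, a scavenger receptor for particles, at 173, 434, 429 and 218 CPM in RAGE null AM and 833, 998, 966 and 865 CPM in WT AM (adjusted p = 0.021), and that call was lost without WT replicate 1 or 2 or RAGE null replicate 0 or 3 (adjusted p = 0.0526 to 0.0644). Epcam, an epithelial adhesion molecule, was at 121, 162, 115 and 77.6 CPM in RAGE null AM and 22.6, 17.6, 26.4 and 50.4 CPM in WT AM (log2 2.03, SE 0.30, adjusted p = 0.000574). Of 14 general epithelial genes 2 were higher and none lower (7 called without control RAGE null replicate 2, 5 without the 3 libraries that stood apart, and 1 without WT replicate 2 or RAGE null replicate 0), and their sum was 702 to 868 CPM in RAGE null AM and 579 to 716 CPM in WT AM. Of 13 markers of type 1 alveolar cells, the cells richest in Ager, 5 were higher in RAGE null AM, Ager itself among them, and none was lower. Clic5, a chloride channel family member, was at 0.741 to 1.89 CPM in RAGE null AM and 0.129 to 0.228 CPM in WT AM (adjusted p = 0.0152), and Cldn18, a tight junction claudin, at 0.808 to 2.25 CPM in RAGE null AM and 0.114 to 0.386 CPM in WT AM (adjusted p = 0.0247). The Cldn18 call was lost without WT replicate 0, 1 or 2 or RAGE null replicate 1 or 3 (adjusted p = 0.0532 to 0.0775). The number of these markers called was 2 without any 1 of those 5 libraries, 3 with RAGE null replicate 2 left out, 9 with replicate 2 of the RAGE null controls left out, and 10 without the 3 libraries that stood apart. The summed level of the 13 markers overlapped, at 102 to 137 CPM in RAGE null AM and 97.9 to 131 CPM in WT AM.

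Of 14 type 2 alveolar markers none was called (4 by DESeq2 or without control RAGE null replicate 2), and their sum was 484 to 515 CPM in RAGE null AM and 472 to 518 CPM in WT AM. Monocyte and interstitial macrophage markers, with 2 of 18 higher and 2 lower (2 called without WT replicate 1 or 2 or RAGE null replicate 0), summed to 1503 to 2123 CPM in RAGE null AM and 1251 to 1568 CPM in WT AM. Dendritic cell markers, with 3 of 15 lower, Ccl17 and Ccl22 among them (5 called without RAGE null replicate 1), summed to 1290 to 1401 CPM in RAGE null AM and 1021 to 1144 CPM in WT AM. The B cell sum was 400 to 446 CPM in RAGE null AM and 248 to 270 CPM in WT AM over 3 genes, and that of neutrophils 102 to 129 CPM in RAGE null AM and 83.6 to 107 CPM in WT AM over 7 genes. Naaa, 1 of the 15 dendritic cell markers, made up most of the dendritic cell sum and was not called, whereas 13 of the 15 markers had a negative log2 difference, at a median of -0.65. Cd22, the 1 B cell marker called higher, set nearly all of the B cell sum, with a mean of 425 CPM in RAGE null AM and 258 CPM in WT AM. The part of other cells in the differences was not tested. Of 12 T and NK cell markers 1 was higher, of 13 airway markers 1 was higher (0 without WT replicate 2 or RAGE null replicate 0), of 4 endothelial and fibroblast markers 1 was lower, and of 4 red cell and platelet and 2 gland markers none was called. Of 9 genes of RNA quality none was called.

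Set beside the other comparisons of the series, 294 of the 644 genes (45.7%) were called in the same direction in 4-month controls and 5 in the opposite direction, Nr1d1 among these. The 2 comparisons share no library, but they share 1 fit. In those controls 909 genes (6.97%) were called, and 1481 without control RAGE null replicate 2. After 7 days of CS, with other mice throughout, 103 of the 644 (16%) were called in the same direction and 3 in the opposite direction, where 291 of 13220 genes (2.2%) were called, 178 without 7-day CS WT replicate 1 and 192 without 7-day CS RAGE null replicate 0. Of the 629 tested at both times, 507 had the same sign. The share with the same sign among all genes was not worked out, so this count has no background. Genes called at both CS times included H2-T10, Emilin2, Crim1, C4b, Epas1 and C5ar1, the last at a 7-day log2 difference of 0.80 (adjusted p = 0.000752). Ephx1 was the Nrf2 list member with the smallest adjusted p at 7 days among those named here, at a log2 difference of -0.82 (adjusted p = 0.000137), and Nfkbie was lower at both times, with a 7-day log2 difference of -0.75 (adjusted p = 0.00191).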

How the data were processed

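RNA of pelleted lavage AM was sequenced as poly-A selected, single-end 50 base reads, 1 library per mouse. Per the labels, reads were aligned with Novoalign to mm10, and the submitters' processing notes also name DESeq2. The deposited table holds raw counts per gene, which the authors made after removing reads with more than 1 location, for 13521 genes and 31 libraries. No listed gene had fewer than 20 counts in its highest library. The table also holds FPKM values, log2 ratios and adjusted p-values of the authors' own comparisons, which were not used.

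Groups followed the labels. The 16 libraries of 4 months were fitted together, with 1 coefficient per group, in edgeR 4.0.16 (R 4.3.3, limma 3.58.1) with TMM scaling, filterByExpr by group (minimum count 10, minimum total 15) and the quasi-likelihood test. Libraries of 7 days were scaled and fitted separately. P-values were adjusted by Benjamini-Hochberg across the tested genes of a fit. Calls required an adjusted p below 0.05 together with a fitted fold of at least 1.5. Adjusted p-values of log2 differences in the text come from this fit. The SE given with them was derived as the absolute log2 difference divided by the square root of the F statistic. Totals of 14885608 to 20025262 counts in the 8 CS libraries of 4 months set the precision of low genes. Alternatives were DESeq2 1.42.0, its size factors in edgeR, dropping the filter on low counts, requiring 20 counts in every library, dropping the fold threshold, only the libraries compared, a replicate block and each library left out. Another pair of alternatives was chosen after seeing the data: leaving out 3 libraries that stood apart, and leaving out chromosome 17. Scripts were tested on simulated counts. Replicate pairs differed by more than sampling noise in every group, so that none was counted as 1 sample.

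The comparison and the 39 gene lists were chosen with earlier results of these data known. Named genes were the 15 largest increases and decreases among called genes whose groups did not overlap and whose log2 CPM averaged 1 or more, up to 4 members with the smallest p in each list described, up to 5 interaction genes in each direction, and genes the study names. Not all of these are described. Gclm, Nqo1, Cd40, Icam1, Nfil3, Per3, Nnt, Ccbe1 and Glo1 were added after their values were seen. Promoter sequences are from RefSeq (GRCm38.p6). Figures and tables used matplotlib 3.10.9, scipy 1.17.1, numpy 2.4.6 and pandas 2.3.3 under Python 3.11.15.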

Additional observations from a re-analysis of the deposited data

Results flagged for a closer look

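In 7 of 156 groups of 4 libraries examined for the named genes, 1 library lay far from the other 3, and chance gives about 1 in 20. In CS-exposed RAGE null AM, replicate 0 held 0.539 CPM of Cxcl9 where the other libraries held 0.920 to 0.995 CPM, 210 CPM of Ugt1a6a where the others held 279 to 288 CPM, 352 CPM of Hsph1 where the others held 55.1 to 102 CPM, and 18.4 CPM of Hspa1a where the others held 0.733 to 1.93 CPM. In CS-exposed WT AM, replicate 0 held 14.0 CPM of C4b (others 3.67 to 5.39 CPM), replicate 3 held 129 CPM of Nfkb2 (others 103 to 104 CPM) and replicate 2 held 12.1 CPM of Arntl (others 7.29 to 7.61 CPM).

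The genotype difference after CS differed from that in 4-month controls by an interaction term for 5 genes. The log2 interaction, edgeR quasi-likelihood test, was -2.93 for Nr1d1 and -1.57 for Nr1d2 (adjusted p = 0.000284 each), 0.999 for Cry1 (adjusted p = 0.0136), 0.88 for Zeb1 (adjusted p = 0.0494) and -0.60 for Nr1h3 (adjusted p = 0.0353), with 4 mice in each of the 4 groups.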

How the results depend on the processing

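The 644 genes called after 4 months of CS became 719 with DESeq2 (628 shared), 650 with its size factors, 652 with no filter, 696 from the 8 libraries alone, 665 without the 3 libraries that stood apart (540 shared) and 581 without chromosome 17. With no fold threshold 1414 were called, and 400 with at least 20 counts in every library, where fewer genes were tested. Leaving out single libraries gave 458 to 763. The count was lowest without CS-exposed WT replicate 2 (458), WT replicate 1 (467) and RAGE null replicate 0 (480). For the interaction, counts were 8 with no fold threshold, 65 with DESeq2, 551 without the 3 libraries that stood apart and 3 to 74 with single libraries left out. In controls they were 2777 with no fold threshold, 554 with at least 20 counts, 604 from the libraries compared, 1568 without the 3 libraries and 647 to 1481 with single libraries left out. After 7 days of CS they were 588 with no fold threshold, 155 with at least 20 counts and 178 to 305 with single libraries left out. The Ager difference stayed between 1.88 and 2.33 CPM with single libraries left out. The cause of these moves was not tested. A fit that blocked on replicate number called 657 genes (620 shared), 4 for the interaction, 918 in controls and 293 at 7 days. The numbers did not pair the samples: correlations between CS-exposed RAGE null and WT libraries of the same number ran from -0.23 to 0.06. With the block, Hspa1a was called (adjusted p = 0.0271), and 9 type I interferon genes were called instead of 5. The interaction call of Nr1h3 was lost with it (adjusted p = 0.111). Of 78 genes examined singly, 7 changed their call after CS without 1 library, 4 under another setting, and none changed sign while called. DESeq2 gave Gpr56 no adjusted p. Without the 3 libraries that stood apart, the number called moved by over 1.5 times in several lists, among them type 1 alveolar (10), type 2 alveolar (4), general epithelial (5), lipid uptake (4), type I interferon (3), cytosolic heat shock (2) and alternative activation genes (2).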
